A study of Mus musculus with 6 samples.

Results

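The 6 RNA-seq libraries of mouse KVTR cells were divided by their level of C3, the central protein of the complement system, and every gene was described on both sides of that division. The sides were chosen by the measured C3 level itself: a library counted as C3-high where C3 reached at least 2000 CPM, the count scaled to a common total over the library's own counts. This put blank 2, dopamine 2 and dopamine 3 on the C3-high side, and blank 3, dopamine 1 and the unnumbered blank library (its column of counts carries no number) on the C3-low side, which accounts for 6 of 6 libraries. By the same unscaled measure the lowest C3-high library, blank 2, stood at 4485 CPM and the highest C3-low library, blank 3, at 691 CPM. The division was made after the C3 values were known and uses the same libraries as every value below, so the differences between its sides are given as a description, with no test and no p-value.

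The libraries came from KVTR cells, mouse cells labelled as primary cells isolated from a clear cell renal carcinoma, a cancer of kidney tubule epithelium. The blank group received no dopamine and the dopamine group was given this catecholamine transmitter; no dose or duration was found in the labels. Treatment and C3 level are crossed unevenly: the C3-high side holds 1 blank and 2 dopamine libraries and the C3-low side 2 blank and 1 dopamine library. The labels do not say that the libraries are separate cultures, so the spread between them may be technical, and they give no further genotype or clone for these cells. Totals ran from 17954949 to 23375622 counts on the C3-high side and from 16771499 to 19766071 on the C3-low side, and 15420 of 56691 genes passed the filter on low counts.

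Complement C3, the iron-binding lipocalin Lcn2, the secreted chitinase-like protein Chil1 and the intermediate filament protein Gfap are known together from reactive astrocytes, glial cells that respond to injury and to cytokines. In such cells NF-kB drives C3 and many cytokine genes, STAT3 drives acute-phase genes, and interferons induce guanylate-binding proteins and antigen presentation genes. C3, Lcn2 and complement factors are also made by epithelial cells, the kidney tubule included, during inflammation.

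All values from here on are CPM on library sizes scaled by TMM (a trimmed mean of gene ratios between libraries). They are ordered as blank 2, dopamine 2 and dopamine 3 for the C3-high side, then blank 3, the unnumbered blank and dopamine 1 for the C3-low side. C3 (ENSMUSG00000024164, chr17:57510970-57535136 in GRCm39), whose product is cleaved when complement is activated, stood at 4659.9, 8552 and 6383 CPM against 672, 17.3 and 623 CPM. Lcn2 (ENSMUSG00000026822, chr2:32274645-32278264), which sequesters bacterial siderophores, stood at 3363, 5707 and 4110.5 CPM against 915, 47.3 and 1227 CPM. Chil1 (ENSMUSG00000064246, chr1:134109914-134117919) stood at 1498, 2417 and 1682 CPM against 60.5, 1.29 and 32.2 CPM. These 3 markers were several times higher in every C3-high library than in any C3-low library, and the unnumbered blank library held the lowest level of each.

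Gfap (ENSMUSG00000020932, chr11:102778162-102791738) separated the sides less cleanly, at 1629.9, 1219 and 1316 CPM against 815, 32.4 and 102 CPM. Its sides did not overlap, but blank 3 stood within 1.495-fold of the lowest C3-high library, so that Gfap fell short of the 2-fold gap used below. A gap here is the lowest value of the higher side over the highest value of the lower side, each with 0.5 CPM added, and the gap was 6.93-fold for C3, 2.74-fold for Lcn2 and 24.6-fold for Chil1.

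Promoters were read to see whether genes that stood highest on the C3-high side carry matches to binding motifs of NF-kB, interferon-activated factors and STAT proteins. The sequences below run from 250 bases before to 50 bases after the RefSeq start site in GRCm38.p6, a different build from the gene positions above, and capitals mark motif matches on either strand. C3 is shown as the gene of the division, Chil1 as the marker of widest gap, Tgtp1 and Gbp5 as interferon-induced GTPases and Saa3 as an acute-phase gene. Beyond C3, the genes shown were chosen for holding a match.

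C3, chr17:57228087-57228386, minus strand: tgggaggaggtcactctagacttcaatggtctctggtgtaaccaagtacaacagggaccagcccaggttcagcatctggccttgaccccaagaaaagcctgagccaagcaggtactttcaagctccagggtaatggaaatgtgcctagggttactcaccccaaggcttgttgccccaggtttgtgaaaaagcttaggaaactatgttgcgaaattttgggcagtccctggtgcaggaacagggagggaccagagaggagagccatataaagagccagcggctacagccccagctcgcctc

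Chil1, chr1:134181906-134182205, plus strand: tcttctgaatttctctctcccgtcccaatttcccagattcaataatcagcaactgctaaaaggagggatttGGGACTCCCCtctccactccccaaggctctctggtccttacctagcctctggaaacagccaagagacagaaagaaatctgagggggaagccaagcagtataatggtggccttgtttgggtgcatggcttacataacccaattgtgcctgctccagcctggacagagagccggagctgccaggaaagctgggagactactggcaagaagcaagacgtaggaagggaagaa

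Tgtp1, chr11:48992197-48992496, minus strand: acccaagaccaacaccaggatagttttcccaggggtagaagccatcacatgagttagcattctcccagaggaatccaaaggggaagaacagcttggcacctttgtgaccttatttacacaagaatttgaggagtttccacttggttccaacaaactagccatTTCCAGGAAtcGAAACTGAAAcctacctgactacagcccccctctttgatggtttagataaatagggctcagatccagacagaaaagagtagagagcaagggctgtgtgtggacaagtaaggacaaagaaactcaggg

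Gbp5, chr3:142496684-142496983, plus strand: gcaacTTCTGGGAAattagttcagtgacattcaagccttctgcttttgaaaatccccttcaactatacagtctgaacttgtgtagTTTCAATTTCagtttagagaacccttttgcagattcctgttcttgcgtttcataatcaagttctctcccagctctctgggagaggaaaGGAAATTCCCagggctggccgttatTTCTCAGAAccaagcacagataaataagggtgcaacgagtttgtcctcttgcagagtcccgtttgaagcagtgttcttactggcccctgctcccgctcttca

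Saa3, chr7:46715627-46715926, minus strand: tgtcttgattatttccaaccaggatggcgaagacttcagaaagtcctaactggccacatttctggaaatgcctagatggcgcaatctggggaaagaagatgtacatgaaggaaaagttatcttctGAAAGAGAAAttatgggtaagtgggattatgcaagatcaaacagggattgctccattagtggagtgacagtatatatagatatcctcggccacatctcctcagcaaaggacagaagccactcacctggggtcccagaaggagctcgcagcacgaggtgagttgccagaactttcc

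The C3 window held none of the 3 motifs searched, nor did those of Lcn2, C4bp and Slco1a4, which are not shown. Chil1 held an NF-kB consensus match beginning at position -179 from the start site. Tgtp1 held a STAT match (TTCNNNGAA) at -88 beside an interferon-response core (GAAA, any 2 bases, GAAA) at -77. Gbp5 held all 3 motifs, with 2 STAT matches, and Saa3 held the interferon-response core at -125. Such matches describe letters in a window and show no binding. Among 11231 tested genes with a promoter window, 6.49% held the NF-kB consensus, 3.67% the interferon-response core and 8.10% the STAT motif. Of genes higher on the C3-high side by a 2-fold gap, 145 had a window, and the shares were 13.1%, 11.7% and 11.7%. Of genes higher on the C3-low side 57 had one, with shares of 5.26%, 3.51% and 7.02%. A gene was counted if any of its windows held a match.

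Over all genes, 196 of the 15420 tested (1.27%) were higher on the C3-high side by at least a 2-fold gap and 79 (0.512%) were higher on the C3-low side, 1.78% in either direction. A 4-fold gap left 34 (0.220%) and 6 (0.0389%). Of the 275 genes past the 2-fold gap 71.27% were higher on the C3-high side, and 60.46% on plain CPM (159 and 104 genes), a scaling that moves the median difference of all genes from about 0 to -0.11 (log2). Without requiring a fold, the sides did not overlap for 2275 genes higher (14.8%) and 1915 lower (12.4%) on the C3-high side. Leaving out a library can only keep or raise the counts of genes past a gap, here and in the lists below. The 2-fold counts were larger without blank 3, at 522 and 319, and without the unnumbered blank library, at 344 and 204. Shares without overlap over all genes were not computed with a library left out. The count of genes higher on the C3-low side was also larger without blank 2 (145) and without dopamine 1 (120). Because the filter on low counts admits a gene through its high libraries, 24 of the 196 genes were below about 0.527 CPM in every C3-low library, and 20 of the 79 were below it in every C3-high library.

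**Figure D1:**
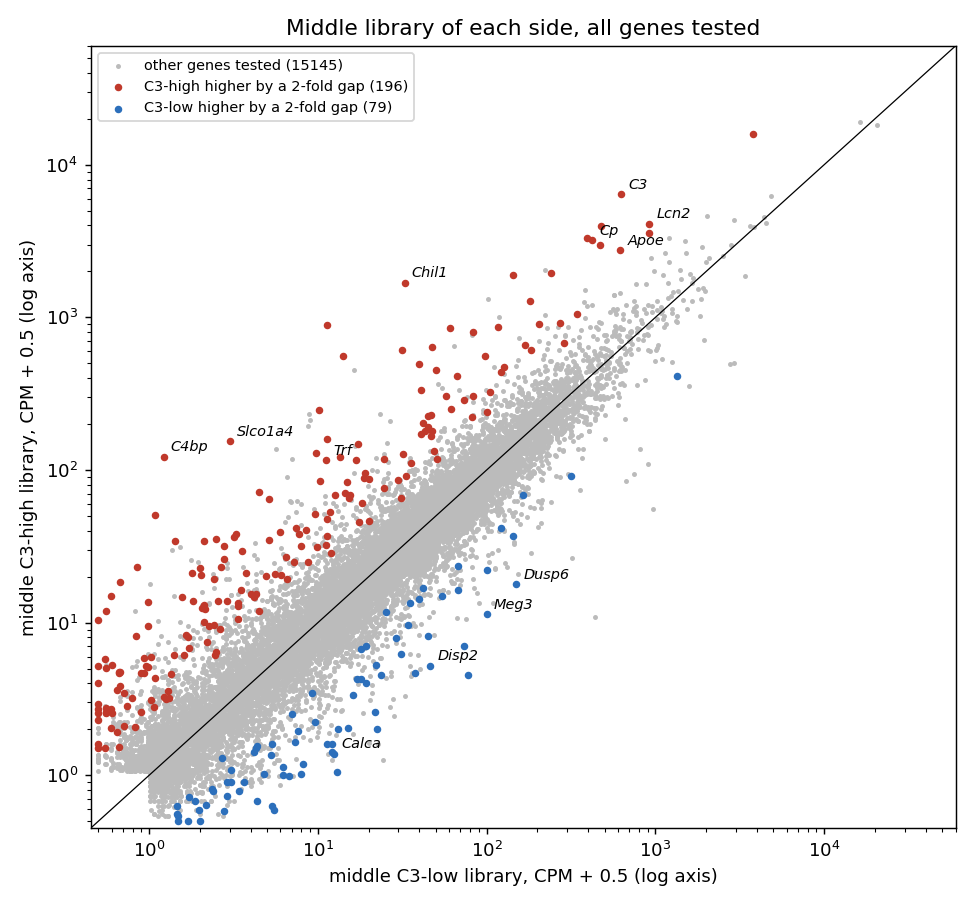
Each point is 1 of 15420 genes, placed by the level (CPM + 0.5, log axes) in the middle library of the C3-low side (horizontal) and of the C3-high side (vertical). The 196 red genes lie above the diagonal, with C3, Lcn2 and Chil1 among the abundant ones, and the 79 blue genes below it are mostly under 100 CPM on the C3-high side.

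The C3-high libraries resembled each other more than the C3-low libraries did. Across genes, pairs of C3-high libraries correlated at 0.983 to 0.986 (log2 CPM), pairs of C3-low libraries at 0.919 to 0.951 and pairs from both sides at 0.910 to 0.959. The median gene spanned 0.41 on the log2 scale among the C3-high libraries and 0.68 among the C3-low libraries, where 30.8% of genes spanned 2-fold or more against 6.89%. Blank 3 was nearest to the C3-high side: it was the highest C3-low library for 127 of the 196 genes, against 47 for the unnumbered blank and 22 for dopamine 1. Over all tested genes blank 3 correlated at 0.959 with blank 2, 0.954 with dopamine 2 and 0.948 with dopamine 3. Within its own side it correlated at 0.951 with dopamine 1 and 0.919 with the unnumbered blank, so the C3-low libraries do not form a close group. Mitochondrial transcripts took 3.11% to 4.81% of counts on the C3-high side and 3.64% to 4.25% on the C3-low side. Ribosomal protein genes took 1.41% to 1.77% and 1.83% to 2.65%, so these ranges did not overlap. The median difference between sides was 0.13 (log2) in the shortest of 3 equal groups of genes by exonic length and -0.13 in the longest group. The part of ribosomal protein share, gene length and library in the differences below was not tested.

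The labelled tissue was checked against its markers. Of 27 kidney tubule markers, 14 were under 1 CPM in every library. Cdh16, the kidney cadherin, stood at 0.0960 CPM at most, and Pax8, the lineage factor of tubule cells and clear cell carcinoma, at 0.383 to 1.15 CPM. Lrp2, the endocytic receptor megalin of proximal tubule and of some neural cells, stood at 151, 94.4 and 102 CPM against 235, 87.1 and 384 CPM. Astrocyte and neural progenitor genes were abundant on both sides. The glutamate transporter Slc1a3 stood at 2393, 1952 and 1305 CPM against 489.8, 242 and 90.97 CPM, the glial water channel Aqp4 at 679, 379 and 441 CPM against 127, 70.4 and 121 CPM, and Sox2, a transcription factor of neural progenitors, at 186, 198 and 180.2 CPM against 119, 202 and 267 CPM. Aqp1, a water channel of proximal tubule and of other cells, was present too, at 14.5, 78.7 and 29.6 CPM against 116, 116 and 30.04 CPM. Summed, the 27 tubule markers stood at 160.1 to 198 CPM on the C3-high side and 239 to 456 CPM on the C3-low side. Fibroblast and pericyte genes were abundant too. The 22 listed summed to 5676 to 8886 CPM on the C3-high side and 3313 to 14605 CPM on the C3-low side. The 28 astrocyte genes summed to 14702 to 17767 CPM and 2627 to 5921 CPM. The X-linked Xist (33.5 CPM or more) and the Y-linked Ddx3y (38.9 CPM or more) were both present in every library. Lrp2 and Aqp1 apart, the tubule genes named and the abundant glial genes go against the label on both sides. Which cells carried these genes was not tested.

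Astrocyte genes were higher on the C3-high side. Of 25 tested members, 24 had a positive difference, 18 did not overlap between sides, 8 passed the 2-fold gap, and the median difference was 1.30 (log2; 2.02 without blank 3). In bulk libraries fewer cells of a type and less RNA per cell cannot be told apart. Slc1a2, the main glutamate transporter of astrocytes, stood at 859, 936 and 679 CPM against 239.7, 66.2 and 116 CPM. Apoe, the lipid carrier that astrocytes secrete, stood at 2766, 3844 and 2653 CPM against 706, 194 and 619 CPM. Glul, which makes glutamine from glutamate, stood at 1036, 869.9 and 1140.3 CPM against 523, 222 and 195 CPM and had a gap of 1.66-fold. For Slc1a2 and Apoe each C3-high library stood more than 2-fold above each C3-low library. Atp1b2, a glial sodium pump subunit, had a gap of 2.82-fold. Neural progenitor genes had a median difference of 0.22 over 16 members (0.37 without dopamine 1), and Nes, their intermediate filament, overlapped at 849, 977 and 1262 CPM against 720.4, 1026 and 1165 CPM.

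**Figure D2:**
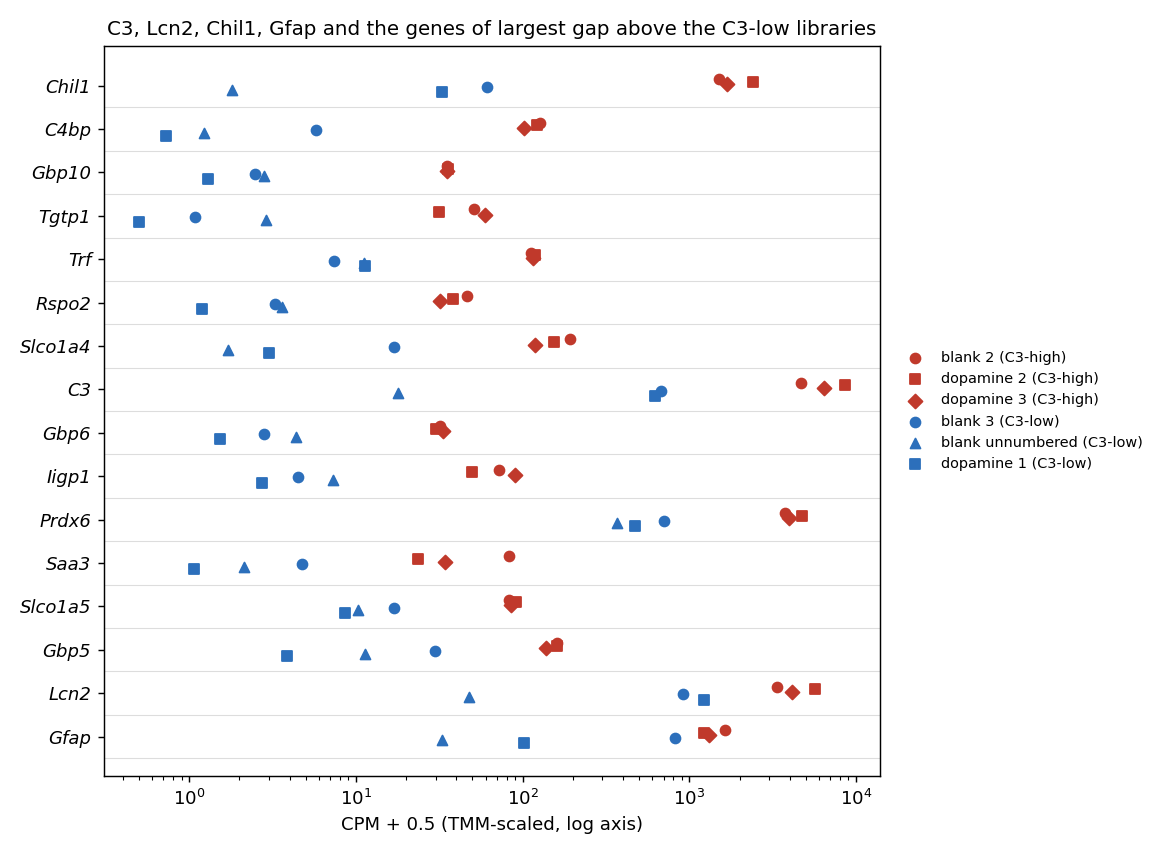
Levels (CPM + 0.5, log axis) of C3, Lcn2, Chil1, Gfap and further genes of wide gap higher on the C3-high side (16 genes in order of gap), 1 point per library (red C3-high, blue C3-low; the marker shape names the library). In every row the red points lie to the right of the blue ones, by a gap of 24.6-fold for Chil1 at the top and 1.495-fold for Gfap at the bottom.

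The widest gap on the C3-high side, among genes at 10 CPM or more in each of its libraries, was that of Chil1. C4bp, the complement inhibitor C4b-binding protein, was next at 126, 122 and 101 CPM against 5.24, 0.719 and 0.229 CPM. Trf, the iron carrier transferrin, was nearly the same in each C3-high library, at 112, 118 and 116 CPM against 6.84, 10.7 and 10.8 CPM. Neither C4bp nor Trf exceeded 10.8 CPM in any C3-low library. Rspo2, a secreted enhancer of Wnt signalling, stood at 46.1, 37.5 and 31.3 CPM against 2.78, 3.12 and 0.688 CPM. The organic anion transporter gene Slco1a4 stood at 191, 154 and 117 CPM against 16.5, 1.198 and 2.52 CPM, and its neighbour Slco1a5 had a gap of 4.89-fold. Near-identical copies can share reads, which makes single values in the Slco1a, Gbp, Tgtp, Orm and H2 families uncertain. Prdx6, a peroxiredoxin that reduces lipid peroxides, was among the most abundant, at 3765, 4706 and 3951 CPM against 699, 369.6 and 474 CPM. Of the 196 genes, 43 were members of the 29 gene lists used here (632 symbols), and 15 carried predicted gene names. The lists were chosen with earlier results of these data known. The shares of all tested genes on a list or with such names were not computed, so nothing is read from these counts.

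Complement genes were mostly higher on the C3-high side. Of 22 tested members (27 listed), 19 had a positive difference, 14 did not overlap and 4 passed the 2-fold gap, C3 itself among them, with a median of 1.36. Past the gap were 8 members without the unnumbered blank library, and 6 without blank 2, dopamine 3 or dopamine 1. Among initiating factors, C1ra, a protease of the first component, stood at 46.9, 51.7 and 38.5 CPM against 18.8, 3.98 and 10.9 CPM, and C4b, the fourth component, at 48.4, 26.5 and 19.97 CPM against 9.89, 2.397 and 12.3 CPM. Cfb, the protease of the alternative pathway, was scarce, at 2.14, 2.65 and 1.91 CPM against 0.534, 0.815 and 0.459 CPM. Hc, the fifth component, stood at 4.34, 5.57 and 4.64 CPM against 1.496, 0.479 and 0.115 CPM. C2 overlapped, at 18.5, 18.2 and 14.2 CPM against 4.81, 24.2 and 2.81 CPM, because the unnumbered blank library was the highest of all. Clu, a chaperone that blocks the terminal complex, stood at 1048, 1174 and 975 CPM against 586, 68.98 and 658 CPM, and the complement inhibitor Cd55 at 8.97, 8.66 and 6.96 CPM against 33.3, 15.6 and 7.34 CPM.

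Acute-phase and STAT3-linked genes gave a median of 1.21 over 30 tested members (0.78 without the unnumbered blank library), 23 of them positive, with 13 that did not overlap and 8 past the 2-fold gap, the marker Chil1 included. Saa3, an acute-phase serum amyloid, stood at 82.7, 23.1 and 33.6 CPM against 4.22, 1.63 and 0.573 CPM. Orm2, an orosomucoid, stood at 3.703, 22.9 and 11.4 CPM against 0.0530, 0 and 0.0570 CPM. Steap4, a metalloreductase induced by inflammatory cytokines, stood at 1049, 623 and 891 CPM against 283, 3.69 and 10.9 CPM. Without blank 3, 16 members instead of 8 passed the 2-fold gap, while over all genes the count rose from 196 to 522. For Steap4 blank 3 was far above the other C3-low libraries. Serpina3n, a secreted protease inhibitor that marks reactive astrocytes, behaved alike, at 917, 560.3 and 496 CPM against 171, 10.6 and 13.6 CPM. Cp, the copper ferroxidase ceruloplasmin, stood at 3907, 3188 and 2983 CPM against 1228, 269 and 419.8 CPM. Il6 itself overlapped, at 88.9, 23.5 and 16.2 CPM against 94.5, 6.66 and 0.287 CPM, with a high blank library on each side, and Il6st, the signalling chain shared by receptors of the IL-6 family, and Osmr, the oncostatin M receptor, overlapped too.

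NF-kB target genes differed less, with a median of 0.61 over 33 members, 27 of them positive and 14 higher without overlap. The count past the 2-fold gap was 1, and 6 without blank 3, 5 without the unnumbered blank library, 4 without blank 2, 3 without dopamine 2 and 2 without dopamine 1. The gene past it in all 6 libraries was Traf1, a receptor adaptor, at 18.5, 26.3 and 20.6 CPM against 4.06, 1.29 and 0.401 CPM. Nfkbia, the inhibitor induced as NF-kB feedback, overlapped at 125, 95.2 and 107 CPM against 81.9, 119 and 84.7 CPM, as did Tnfaip3, another feedback inhibitor, at 28.99, 28.9 and 24.97 CPM against 37.8, 65.05 and 28.8 CPM. Rela, the NF-kB subunit, stood at 60.3, 70.1 and 61.4 CPM against 46.2, 69.1 and 42.2 CPM. Bcl3, a nuclear cofactor of NF-kB, was higher in each C3-high library, at 16.4, 26.95 and 28.3 CPM against 13.1, 4.46 and 8.88 CPM. Tnfrsf1a, the main TNF receptor, had a gap of 1.48-fold, Cebpd, a transcription factor of the acute phase, one of 1.59-fold, and Stat3 one of 1.18-fold. Of 22 tested regulators, 18 had a positive difference, 7 were higher without overlap and 0 passed the 2-fold gap (5 without blank 3, 4 without the unnumbered blank library and 1 without blank 2).

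Interferon-induced genes gave a median of 1.98 over 47 members, 44 of them positive (1.34 without blank 3, 1.28 without dopamine 1). Of these, 24 did not overlap and 9 passed the 2-fold gap. Without the unnumbered blank library 42 did not overlap and 28 passed the gap, and without any other library at most 35 and 12. Over all genes 344 passed the gap without the unnumbered blank library, against 196 with it. The share of all genes without overlap was not computed at that setting, so nothing is read from the 42. Ifit1, an antiviral protein that binds foreign RNA, stood at 193, 123 and 295 CPM against 7.59, 73.5 and 8.25 CPM, and Oasl2, of the oligoadenylate synthetase family, at 89.2, 67.4 and 114 CPM against 1.92, 88.4 and 6.08 CPM. The unnumbered blank library thus reached the C3-high range for Oasl2, as it did for Irf7, the factor that amplifies type I interferon, at 35.8, 29.8 and 55.8 CPM against 3.63, 48.9 and 8.197 CPM.

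The guanylate-binding proteins, GTPases that attack intracellular pathogens, were mostly lower in each C3-low library than in the C3-high libraries. Of 11 Gbp genes tested, 8 passed the 2-fold gap and 10 did not overlap. Gbp10 stood at 34.9, 34.99 and 34.8 CPM against 1.98, 2.301 and 0.802 CPM, Gbp6 at 31.3, 29.8 and 32.7 CPM against 2.298, 3.88 and 1.03 CPM and Gbp5 at 159.8, 161 and 137 CPM against 29.4, 10.8 and 3.38 CPM. The immunity-related GTPase genes did likewise, with Tgtp1 at 50.5, 31.1 and 58.8 CPM against 0.588, 2.397 and 0 CPM, Iigp1 at 71.2, 49.2 and 90.01 CPM against 4.01, 6.76 and 2.23 CPM and Igtp at 148, 88.9 and 172 CPM against 16.8, 24.8 and 10.3 CPM. The Gbp and immunity-related GTPase genes named all passed the 2-fold gap. Their lower level in the unnumbered blank library thus follows from how they were chosen. Nothing is read from setting them beside Oasl2 and Irf7. The interferon receptor genes Ifngr1 and Ifnar1 overlapped, at 69.6, 71.1 and 61.8 CPM against 59.3, 35.3 and 68.8 CPM and at 93.4, 83.7 and 73.5 CPM against 90.3, 87.5 and 111 CPM.

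Antigen presentation genes followed a smaller difference. MHC class I genes had a median of 0.95 over 22 members, 19 of them positive, with 14 that did not overlap and 2 past the 2-fold gap (8 without the unnumbered blank library). The 2 genes were Tapbp, which holds class I molecules at the peptide transporter and stood at 195, 262 and 222 CPM against 81.3, 87.9 and 67.9 CPM, and the class Ib gene H2-T23, at 33.3, 48.3 and 37.5 CPM against 10.8, 4.84 and 7.22 CPM. B2m, the shared light chain, stood at 545, 550.3 and 516 CPM against 295, 399 and 221 CPM. Of 8 MHC class II genes 4 were tested, and the class II chain H2-Ab1 overlapped at 22.8, 41.2 and 28.9 CPM against 33.02, 6.14 and 15.5 CPM.

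**Figure D3:**
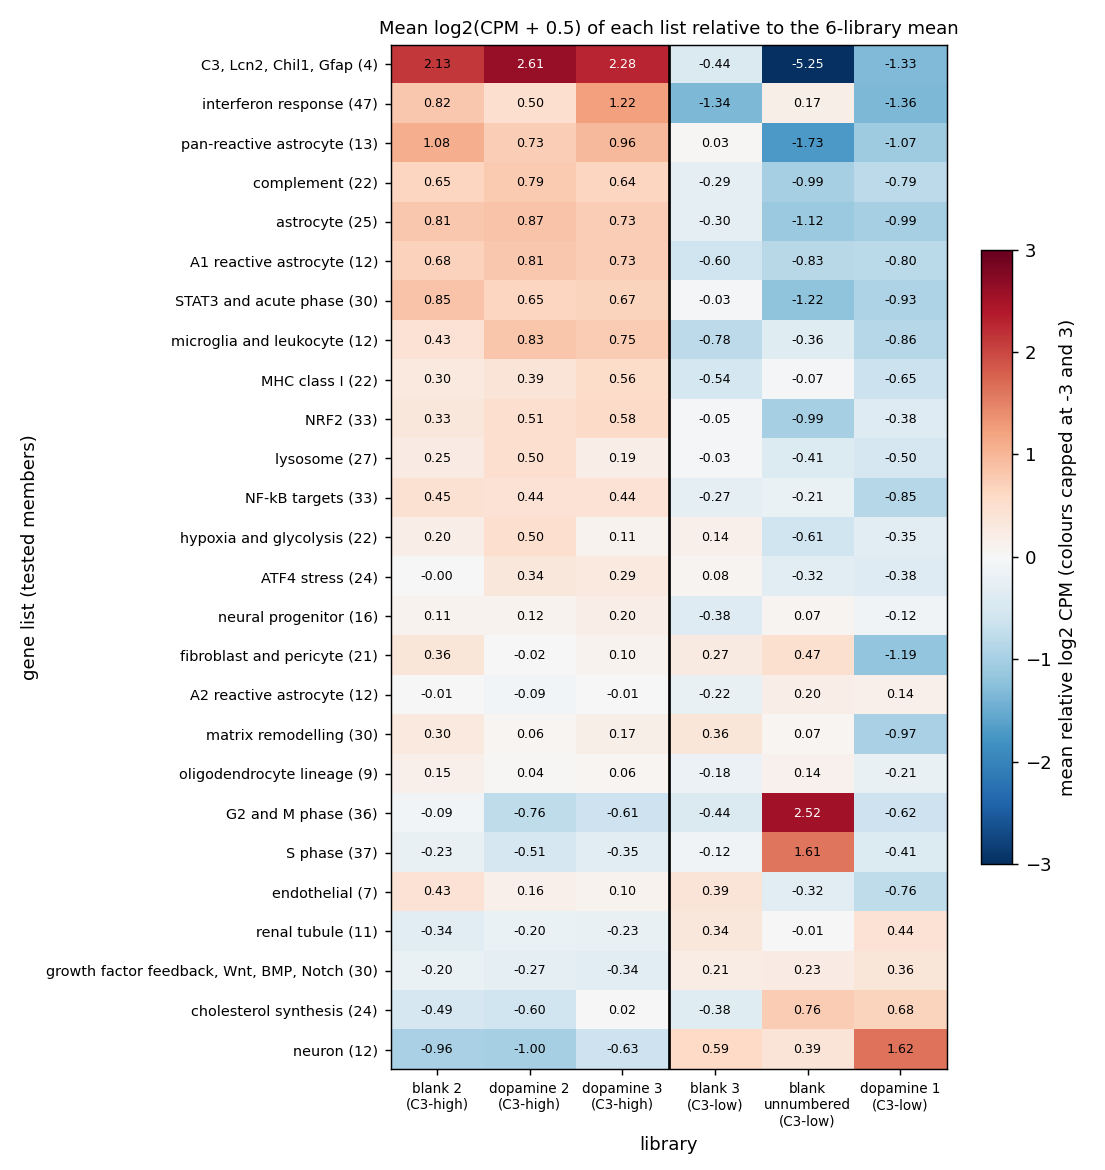
Each cell gives a list's mean log2(CPM + 0.5) in 1 library relative to its mean over 6 libraries, with tested members in parentheses and colours capped at -3 and 3. Astrocyte, complement, acute-phase and interferon lists are above 0 in the 3 C3-high libraries, the neuron list is below 0 there, and the unnumbered blank library stands apart for cell cycle lists (2.52 for G2 and M phase).

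Published reactive astrocyte signatures differed among themselves. The pan-reactive list had a median of 1.86 over 13 members (1.07 without dopamine 1), with 5 past the 2-fold gap, the marker Lcn2 included, and the list of genes induced by lipopolysaccharide (A1) a median of 1.27 over 12 members, with 4 higher, C3 itself among them, and 1 lower past the gap. The list of genes induced by ischaemia (A2) had a median of 0.09, with 6 of 12 positive and 0 past the gap. That median had no stable sign, at -0.03 on plain CPM, -0.11 at a mean of at least 5 CPM and 0.24 without blank 3, where 2 members passed the gap in each direction. S1pr3, a sphingosine-phosphate receptor of the pan-reactive list, stood at 448, 253 and 305 CPM against 88.1, 56.8 and 20.5 CPM. Other pan-reactive genes did not separate, with Vim, an intermediate filament, at 6271, 5156 and 8239 CPM against 3749.5, 4835 and 5300.2 CPM and Timp1, a metalloproteinase inhibitor, at 515, 437 and 584 CPM against 289, 599.99 and 611 CPM. Cd44, a hyaluronan receptor in the same list, was higher in each C3-low library, at 507, 569.7 and 496 CPM against 642, 1248 and 2316 CPM. In the A1 list the exception was Fkbp5, a glucocorticoid-induced immunophilin, at 4.75, 8.13 and 3.96 CPM against 19.5, 21.5 and 26.02 CPM. Of the A2 genes, Emp1, a membrane protein, stood at 55.03, 53.4 and 91.1 CPM against 129, 963 and 2231 CPM, and Ptx3, a pentraxin, overlapped at 1423, 851 and 852 CPM against 925, 203 and 228 CPM.

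Microglia and leukocyte markers were low on both sides. Of 26 markers, 15 were under 1 CPM in every library, and the leukocyte phosphatase Ptprc reached 0.636 CPM, the integrin Itgam 0.405 CPM and the adaptor Tyrobp 0.527 CPM. The summed level of the list was 156 to 269 CPM on the C3-high side and 89.0 to 158 CPM on the C3-low side. Over 12 tested members the median difference was 1.16 with 3 past the 2-fold gap (6 without blank 2), but 0.06 among members at a mean of at least 5 CPM. Lyz2, lysozyme of macrophages, stood at 34.02, 38.3 and 32.9 CPM against 0.588, 13.2 and 0.917 CPM, and Adgre1, the macrophage antigen F4/80, at 4.92, 3.54 and 4.73 CPM against 0.1600, 1.15 and 0.459 CPM. The part of such cells in the interferon and complement values was not tested.

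Genes of oxidative defence were higher on the C3-high side, with a median of 0.75 over 33 NRF2-linked members, 29 of them positive and 2 past the 2-fold gap (12 without blank 3, 5 without blank 2). Slc7a11, the cystine importer that feeds glutathione synthesis, stood at 1116, 798 and 759 CPM against 245, 56.2 and 82.9 CPM, and Fth1, the heavy chain of the iron store ferritin, at 13676, 15828 and 17573 CPM against 5974, 1585 and 3775 CPM. Slc3a2, the heavy chain that pairs with Slc7a11, stood at 529, 607 and 614 CPM against 258, 183 and 182 CPM. Hmox1, which breaks down heme, stood at 2414, 1975 and 2057 CPM against 1243, 146 and 221 CPM and had a gap of 1.59-fold. Lysosomal genes had a median of 0.67 (24 of 27 positive, 0 past the gap) and hypoxia and glycolysis genes one of 0.42 (18 of 22 positive). Past the gap were 2 lysosomal members without blank 3 and 1 without the unnumbered blank library, and 5 hypoxia members without blank 3 and 2 without dopamine 3. The 1 hypoxia gene past the gap with all 6 libraries was Ndrg1, a stress-induced gene, at 87.1, 155 and 88.8 CPM against 39.4, 18.2 and 17.5 CPM.

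The widest gap on the C3-low side, among genes at 10 CPM or more in each of its libraries, was that of Calca. Calca, which encodes calcitonin and the neuropeptide CGRP, stood at 0.405, 0.884 and 1.14 CPM against 10.3, 11.98 and 45.2 CPM. Disp2, of the Dispatched family, stood at 4.17, 4.73 and 8.96 CPM against 44.9, 45.8 and 278 CPM, and Syt13, a synaptotagmin, at 5.15, 5.74 and 5.91 CPM against 30.5, 26.7 and 32.8 CPM. Dopamine 1 was far above the other C3-low libraries for Calca and Disp2, while Syt13 was even across that side. The noncoding RNAs Meg3 and Rian, imprinted genes of 1 cluster on chromosome 12, stood at 21.5, 7.16 and 10.8 CPM against 99.8, 63.4 and 105 CPM and at 27.02, 10.8 and 21.6 CPM against 95.9, 101 and 101 CPM. Sox11, a transcription factor of neural precursors and young neurons, stood at 4.86, 4.02 and 3.27 CPM against 16.2, 23.2 and 25.2 CPM, and Crabp1, which binds retinoic acid, at 4.398, 4.02 and 3.27 CPM against 13.1, 184 and 76.6 CPM. Of the 79 genes, 6 were members of the lists and 32 reached 10 CPM in each C3-low library, again with no share of all tested genes computed.

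**Figure D4:**
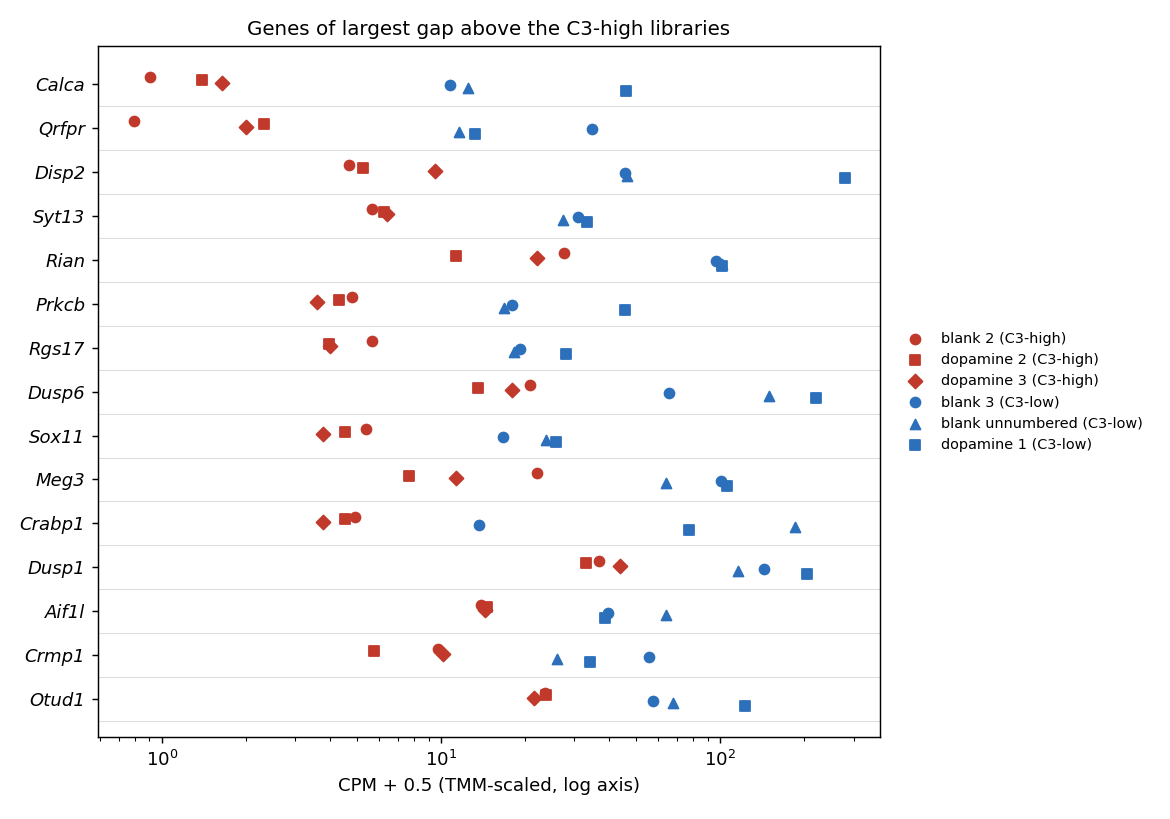
Levels (CPM + 0.5, log axis) of the 15 genes with the widest gap higher on the C3-low side, among genes at 10 CPM or more in each C3-low library and with no predicted name, 1 point per library (red C3-high, blue C3-low; the marker shape names the library). The blue points lie to the right of the red ones in every row, and for Disp2 and Calca dopamine 1 lies far to the right of the other blue points.

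All 12 tested neuron genes had a negative difference, with a median of -1.64, 6 that did not overlap and 2 past the 2-fold gap, which became 5 without blank 3 or dopamine 3 and 4 without the unnumbered blank library. Snap25, of the vesicle fusion machinery, stood at 0.926, 0.265 and 0.955 CPM against 9.03, 11.7 and 12.8 CPM, and Syt1, the calcium sensor of transmitter release, at 1.68, 1.55 and 1.27 CPM against 14.6, 4.36 and 25.1 CPM. Stmn2, a tubulin-binding protein of growing axons, was the most abundant of those named, at 159.99, 126 and 253 CPM against 506, 533 and 452 CPM. Summed, the list stood at 326 to 475 CPM on the C3-high side and 745 to 1102 CPM on the C3-low side. The defining marker of mature neurons, Rbfox3, reached 0.336 CPM at most. Gad2, which makes GABA, stood at 0.752, 0.574 and 0.819 CPM against 2.03, 23.9 and 29.9 CPM.

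A mixed list of growth factor feedback, Wnt, BMP and Notch genes had a median of -0.59 over 30 members (-0.38 without dopamine 1), 21 of them negative and 8 lower without overlap. The count past the 2-fold gap was 1, and 7 without blank 3 or 2 without blank 2 or dopamine 2. Dusp6, a phosphatase that switches off ERK and is induced by it, was the member past the gap, at 20.3, 13.1 and 17.4 CPM against 65.03, 149 and 220.3 CPM. Dusp1, a related phosphatase, stood at 36.3, 32.5 and 43.3 CPM against 143, 116 and 204 CPM. Spry2, a feedback inhibitor of receptor tyrosine kinases, stood at 37.03, 32.5 and 28.7 CPM against 40.7, 144 and 192 CPM, Etv5, a transcription factor induced by ERK, at 59.8, 73.8 and 48.6 CPM against 100.4, 161 and 212 CPM, and Wnt7b, a Wnt ligand, at 15.2, 23.9 and 13.2 CPM against 32.2, 101 and 86.7 CPM. In these last 3 genes blank 3 again stood closest to the C3-high libraries. Cholesterol synthesis genes gave a median of -0.92 (-0.54 without dopamine 1, -0.60 without dopamine 2), with 21 of 24 negative. Lower without overlap were 3 of 24, a share near the 12.4% of all genes. The number was 19 without blank 3 or 14 without dopamine 3, for which no share of all genes was computed. Past the gap was 1 member, and 7 without blank 3. Idi1, an isoprenoid enzyme, overlapped at 20.2, 11.002 and 25.2 CPM against 18.8, 82.8 and 63.6 CPM.

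Cell cycle genes depended on single libraries. The G2 and M phase list had a median of -0.12 over 36 members (-1.49 without blank 3, -1.66 without dopamine 1, and 0.06 without the unnumbered blank library or without dopamine 2) and the S phase list one of -0.23 over 37 (-0.73 without blank 3, -0.94 without dopamine 1, -0.02 without the unnumbered blank library). Of the 37 S phase members, 10 were higher without overlap on the C3-low side and 1 on the C3-high side. Over all genes these shares were 12.4% and 14.8%. Leaving out a library cannot lower such counts, so they do not show whether the difference rests on 1 library. Mki67, a proliferation antigen, was high in the unnumbered blank library alone, at 4.57, 0.795 and 2.18 CPM against 1.92, 73.2 and 1.43 CPM. Kif23, a kinesin of cell division and the G2 and M phase member past the 2-fold gap, was high in dopamine 1 as well, at 1.97, 1.502 and 1.09 CPM against 5.08, 22.9 and 21.9 CPM. Matrix genes (median 0.07, -0.09 on plain CPM, 0.61 without blank 3) and oligodendrocyte genes (0.03, -0.13 on plain CPM, -0.55 at a mean of at least 5 CPM) had no stable sign. Nor had fibroblast and pericyte genes, at 0.21, -0.42 without dopamine 1 and -0.02 without the unnumbered blank library, or endothelial genes, at -0.32 over 7 members, 0.23 without blank 3 and -0.75 without dopamine 1.

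Dopamine was compared with blank in the groups of the labels, which is the only test made. Of 15420 genes, 0 (0.0%) passed edgeR's quasi-likelihood test with Benjamini-Hochberg adjustment, where the smallest adjusted p was 0.9997 and 454 genes had an unadjusted p under 0.05. DESeq2 called 20 genes. Each treatment group holds libraries of both sides, so a gene that separates the sides has a wide spread within both groups by construction, and its dopamine p is not read here. For C3 the dopamine log2 fold change was 1.54 ± 1.61 (SE, n = 3 per group), for Chil1 1.41 ± 2.04 and for Gfap 0.09 ± 1.28. The differences between the sides were 3.35, 5.69 and 3.68 for these genes. Those are differences of middle libraries on sides chosen by C3, so they are not weighed against the dopamine values.

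Within the sides, dopamine and blank libraries could be set side by side with 1 library on one arm each, so these values too are descriptions. On the C3-high side 84 genes (0.545%) were higher and 74 (0.480%) lower in both dopamine libraries than in the blank by a 2-fold gap. On the C3-low side 224 (1.45%) were higher and 465 (3.02%) lower in the dopamine library than in both blanks. By the same 2-fold gap 3 genes (0.0195%) were higher on both sides, namely Cabp1, the acid phosphatase gene Acp5 and the NMDA receptor subunit gene Grin3b, which reached 2.09 CPM at most, and 19 (0.123%) were lower on both. Cabp1, a neuronal calcium-binding protein, stood at 4.17 CPM in the C3-high blank against 19.2 and 16.7 CPM with dopamine, and at 5.72 and 0.479 CPM in the C3-low blanks against 12.8 CPM. Por, the electron donor of cytochrome P450 enzymes, stood at 160.2 CPM in the C3-high blank and at 361 and 312 CPM in its dopamine libraries, and at 174 and 165 CPM in the C3-low blanks and 586 CPM in dopamine 1. Lgals3, the lectin galectin-3, stood at 95.6 CPM against 187 and 246 CPM, and at 122 and 108 CPM against 675 CPM. Por and Lgals3 were thus higher with dopamine on either side of the C3 division. Without requiring a fold, so were 1910 genes (12.4%), and 1882 (12.2%) were lower on both sides. The genes named here were taken from those of widest gap. Mmp16, a membrane metalloproteinase, stood at 34.1 CPM in the C3-high blank against 10.6 and 13.6 CPM with dopamine, and at 44.2 and 22.9 CPM in the C3-low blanks against 7.45 CPM. Aldh1a2, which makes retinoic acid, stood at 16.3 CPM in the C3-high blank against 6.27 and 7.55 CPM, and at 18.6 and 39.9 CPM in the C3-low blanks against 7.68 CPM. In these 2 genes each dopamine library was below each blank library.

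**Figure D5:**
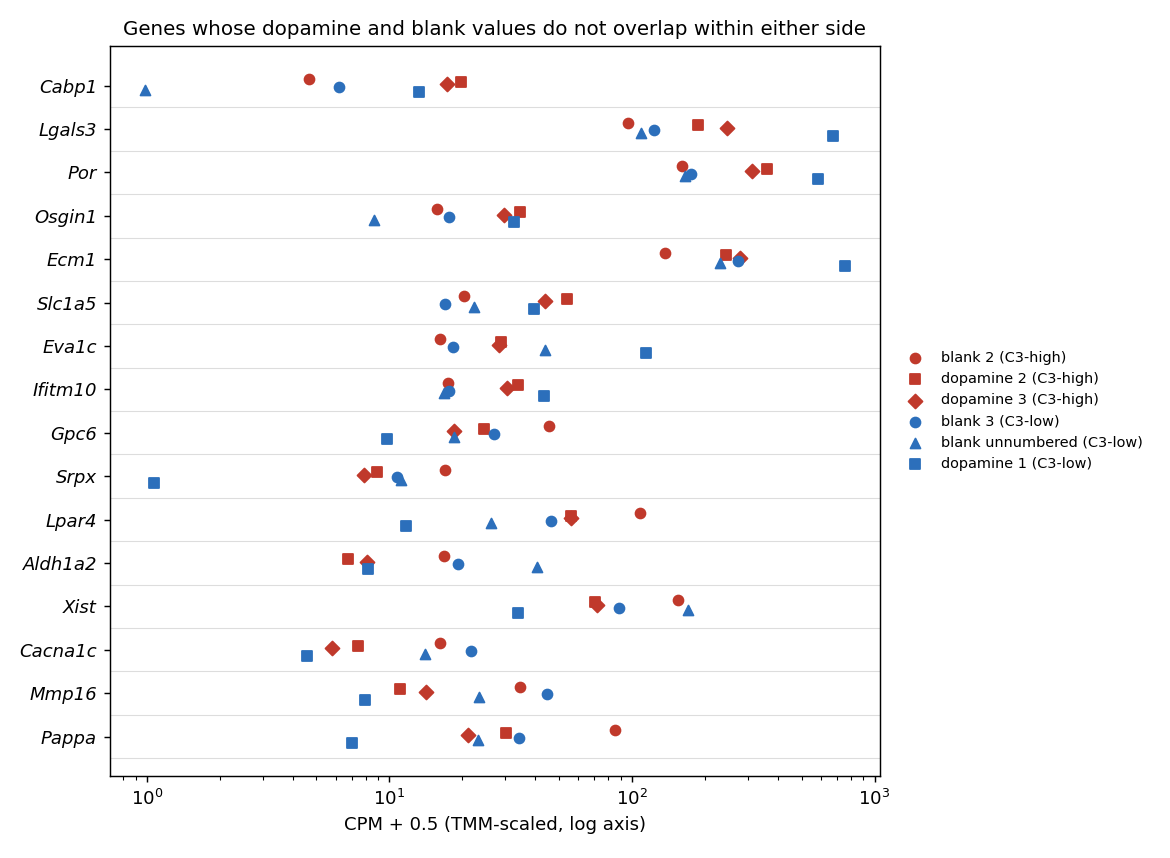
Levels (CPM + 0.5, log axis) of 16 genes whose dopamine and blank libraries do not overlap within either side, 1 point per library (red C3-high, blue C3-low; circles and triangles blank, squares and diamonds dopamine, as the legend names them). They are the 8 of widest gap per direction, at 10 CPM or more in each library of the higher arm and with no predicted name. Without requiring a fold, 12.4% of tested genes were higher and 12.2% lower with dopamine on both sides. In the upper 8 rows the dopamine points of each colour lie to the right of the blank points of that colour, and in the lower 8 rows to the left.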

How the data were processed

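RNA was extracted and amplified with a SMART-Seq HT kit, made into libraries with a Vazyme kit and sequenced from both ends (150 bp) on a NovaSeq instrument, per the labels' protocols. This chemistry does not mark strand, so reads of overlapping or antisense genes cannot be told apart. The authors deposited raw read counts per gene; the build is GRCm39 per the submitters' processing notes, while for the aligner, counting program and annotation a name was not given in the sources used here. None of the 6 FPKM columns was used. The blank count column without a number was used as a blank library and is called the unnumbered blank.

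Counts were analysed with edgeR 4.0.16 in R 4.3.3: genes passing filterByExpr (15420 of 56691) were scaled with TMM and tested dopamine against blank by the 2-sided quasi-likelihood test, with Benjamini-Hochberg adjustment and a threshold of 0.05. DESeq2 1.42.0 and limma 3.58.1 were alternatives. The sides of the C3 division were described from log2(CPM + 0.5): a difference is that between the middle libraries of the sides, and a 2-fold gap is the lowest value of one side at least 2 times the highest of the other. The steps were checked on simulated data. Members and gene lists were chosen with earlier results of these data known. A count of 0 allows up to 3 counts, 0.128 to 0.179 CPM of the unscaled totals, and such floors cover counting error only.

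Named genes are the 4 markers, the 15 of widest gap in each direction at 10 CPM or more with no predicted name, up to 4 tested members of largest difference per list, 25 regulators, and 8 genes per direction from the comparison within sides. Other genes named (Glul, Apoe, Atp1b2, C4b, C2, Cfb, Clu, Cd55, Oasl2, Igtp, B2m, Tapbp, S1pr3, Vim, Timp1, Cd44, Stmn2, Fth1, Etv5, Mki67, Acp5, Grin3b and cell type markers) were chosen after their values were seen. Some genes that the rule takes are not reported here. The symbol of the fifth complement component was matched to Hc through RefSeq synonyms. Promoters are RefSeq's (GRCm38.p6), matched by symbol.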

Additional observations from a re-analysis of the deposited data

How the results depend on the processing

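Genes higher on the C3-high side by a 2-fold gap numbered 196, and 136 to 252 under other scalings, pseudocounts of 0.1 and 2 and filters on low values. Leaving out each library gave 223 to 522, and requiring a 4-fold gap or any gap gave 34 or 2275. Genes higher on the C3-low side numbered 79, and 127 with a pseudocount of 0.1, 33 with a pseudocount of 2, 42 at a mean CPM of at least 5, 103 to 319 with a library left out, 6 at a 4-fold gap and 1915 at any gap. The causes were not tested, but leaving out a library leaves fewer values to separate. Among recomputed gene differences 110 moved by more than the spread between libraries and 1634 did not, and among list medians 35 moved and 283 did not. The sign of Nfkbiz turned on plain CPM. Dopamine against blank gave 0 called genes in edgeR under RLE scaling, without the low-count filter and with each library left out (0 to 0), 0 in limma, and 20 in DESeq2 (6 higher, 14 lower). With a replicate block over the libraries numbered 2 and 3 it also gave 0; same-numbered libraries correlated at 0.59 for number 2 and -0.27 for number 3 in their deviations, so the numbers are not taken as pairs. With 3 libraries per side and no record of separate cultures, low genes near the floor carry little precision.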
